A study of Mus musculus with 2 samples.

Results

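UDP-N-acetylglucosamine (UDP-GlcNAc) is the activated sugar that cells make from fructose 6-phosphate, glutamine, acetyl-CoA and UTP. The genes described here are the 10 that make it, recycle GlcNAc into it, or add and remove the single O-linked GlcNAc that it supplies to nuclear and cytoplasmic proteins: Gfpt1, Gfpt2, Gnpnat1, Pgm3, Uap1, Nagk, Amdhd2, Renbp, Ogt and Oga (named Mgea5 in older annotations). They were taken by name, and every probe for them was found by RefSeq accession, which gave 15 of the 39424 gene probes and all 10 genes among the 20656 genes named in this way. Bone marrow-derived macrophages (BMDMs) came from male Crif1 f/f mice, aged 8 weeks, which carry a floxed Crif1 gene and for which the methods name no Cre. The cells were grown from marrow with M-CSF, a growth factor for macrophages, and were left untreated or were given IL-4 for 18 h. There was 1 array for each condition, both labelled with Cy3 on 1 slide, so no difference below has a replicate check or a p-value. Neither the dose of IL-4 for these arrays nor a pooling of animals is given in the sources used here.

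The hexosamine pathway branches from glycolysis. Glutamine:fructose-6-phosphate amidotransferase, encoded by Gfpt1 and Gfpt2, commits the sugar to it, and an acetyltransferase, a mutase and a pyrophosphorylase then complete UDP-GlcNAc. The product feeds N-glycans, hyaluronan and sialic acid as well as the O-GlcNAc mark, which a single transferase writes and a single hydrolase erases. IL-4 drives macrophages toward the M2 state, in which they carry large amounts of lectin receptors such as Mrc1, a glycoprotein, at their surface.

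Signal is the background-subtracted intensity of a probe's spot, and each value of a member below is followed by the error that the scanner software estimated for that spot. For the differences, log2 intensity was scaled to the 75th percentile of each array, 9.84 for untreated and 9.94 for IL-4, and is given as IL-4 minus untreated. Folds come from these scaled differences, so they do not equal the ratios of the unscaled intensities printed beside them. A spot is called detected where the software marked it as well above background, as it did for 59.8% of gene spots with untreated RNA and 57.4% with IL-4. Of the 15 member probes, 13 were detected on both arrays, and the other 2 with IL-4 only. A gene with 2 probes was read from the brighter one, and the dimmer is given beside it. Intensities of different probes cannot be set against each other as amounts of RNA. Between the spots of 256 probes that were printed repeatedly, the SD of the log2 difference at the signal of a member's brighter probe was 0.046 to 0.12, and the software's own errors combine to 0.20 to 0.24. Neither covers the spread between cultures. The IL-4 array carried the known response of mouse macrophages, as Arg1, Retnla, Chil3 and Mrc1 were all higher, by 5.33-fold (Mrc1) to at least 595-fold (Retnla). Macrophage markers (Csf1r, Adgre1, Itgam, Fcgr1, Mertk and Lyz2) were detected on both arrays, 6 of 6 with a probe, and so were 2 of 4 T cell, 0 of 3 B cell, 4 of 4 neutrophil, 3 of 4 eosinophil, 1 of 3 mast cell or basophil, 3 of 3 fibroblast and 0 of 3 erythroid markers.

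None of the 10 genes differed by 2-fold between untreated and IL-4-treated BMDMs in either direction. Of the 14073 named genes detected in one condition or both, 3.06% were higher by 2-fold or more and 3.35% lower by as much. The brighter probes of all 10 members were detected on both arrays. Of the 12744 genes detected in that way, 295 were higher by 2-fold or more and 184 lower. A cutoff of 1.5-fold was passed upward by 6.36% of the 14073 genes and downward by 8.95%, and 89.7% of the 12744 lay within it. In the main setting 0 members were higher by that cutoff and 1, Gfpt2, was lower. The log2 differences of the members ran from -0.61 for Gfpt2 to 0.27 for Nagk, with a median of 0.07, against a median of -0.01 over the 12744 genes that both arrays detected. Apart from Gfpt2, they lay between -0.23 and 0.27, a range that held 65.3% of those 12744 genes. A single scaling value per array moved all genes together. Their median went from -0.01 to 0.20 with median scaling and to 0.32 with scaling on spike-in RNA. The share of higher genes among those past 2-fold went from 47.7% to 67.7% and 77.0%, and was 57.8% without scaling. With the 75th percentile taken from probes that both arrays detected, the median of all genes was -0.07 and the share 42.2%. Quantile normalization, normexp and cyclic loess kept the median at -0.015, -0.037 and 0.0081, with shares of 65.0%, 62.0% and 59.7%. In the authors' processed values the median was -0.013 and the share 40.3%, with differences counted as measured and without lower bounds. The members were therefore also read relative to the median gene of each setting. Seen so, Gfpt1, Gnpnat1, Pgm3, Uap1, Nagk, Amdhd2 and Oga were above the median gene and Gfpt2 below it in the main setting. By definition, as many genes lie above the median gene as below it. Of genes of like signal, 43.3%, 35.7% and 45.8% were at least as high as Gfpt1, Pgm3 and Amdhd2. Settings that subtract 1 value per array, or none, give the same relative values by construction. Only quantile normalization, cyclic loess and normexp could change them. These kept the 8 genes on their sides, though Amdhd2 by as little as 0.00036, while Renbp lay on both sides. The 2 probes for Ogt lay on opposite sides of the median gene in each of these settings, the one that is brighter in the main setting at -0.23 to -0.22 relative to it and the other at 0.19 to 0.25.

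**Figure D1:**
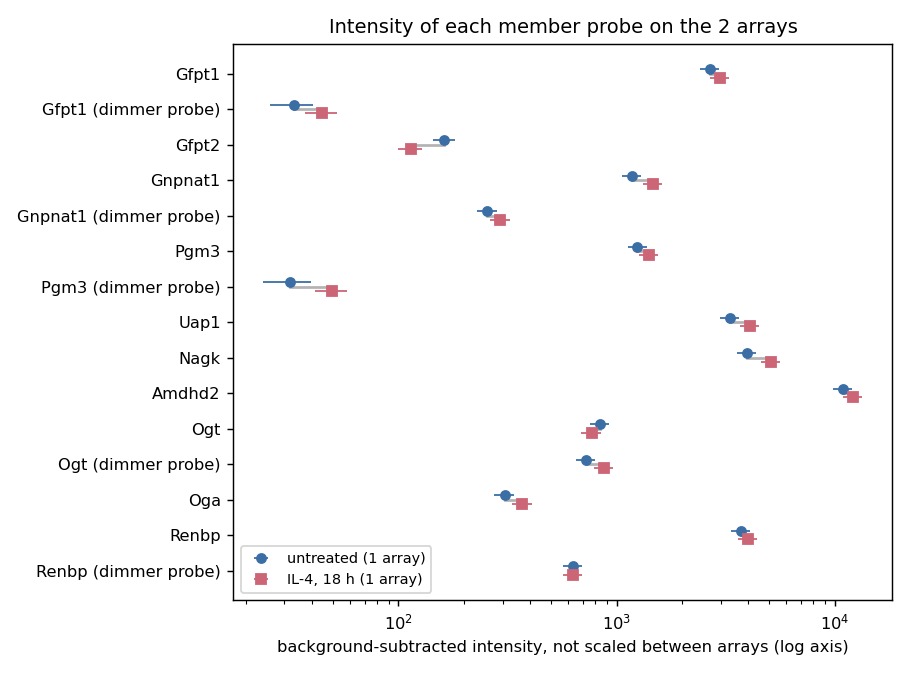
Background-subtracted intensity (log axis, not scaled between arrays) of each of the 15 member probes on the untreated array (circles) and the IL-4 array (squares), with the software's error as bars. Most pairs lie close together, and the intensity of Gfpt2 was lower on the IL-4 array, at 114 against 163.

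The regulatory sequence in front of these genes is shown for 3 members and 1 reference gene, to set the promoters of the 2 isoenzymes side by side and to show what the motif searches found. Promoters are from RefSeq on GRCm38.p6, each running from 250 bases before to 50 bases after the annotated start, 5′ to 3′ on the gene's own strand. The table holds 10 promoters for 9 of the 10 genes (2 for Ogt), and none was used for Gnpnat1. They were searched on both strands for TTC and GAA with 4 bases between them, the spacing that STAT6 prefers, for TTCNNNGAA, with 3 bases between them, the spacing of other STAT factors, and for CACGTG, the E-box, and capitals mark a match. The Gfpt1 promoter lies at chr6:87042596-87042895 on the plus strand, that of Gfpt2 at chr11:49793905-49794204 on the plus strand, that of Amdhd2 at chr17:24163684-24163983 on the minus strand, and that of Retnla, the IL-4 response gene shown for reference, at chr16:48842359-48842658 on the plus strand.
Gfpt1: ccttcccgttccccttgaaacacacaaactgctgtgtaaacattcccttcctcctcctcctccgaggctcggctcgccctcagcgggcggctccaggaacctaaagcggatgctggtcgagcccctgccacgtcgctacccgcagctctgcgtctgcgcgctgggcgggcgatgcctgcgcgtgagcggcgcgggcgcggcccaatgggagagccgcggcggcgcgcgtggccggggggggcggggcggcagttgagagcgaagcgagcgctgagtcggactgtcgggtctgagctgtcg
Gfpt2: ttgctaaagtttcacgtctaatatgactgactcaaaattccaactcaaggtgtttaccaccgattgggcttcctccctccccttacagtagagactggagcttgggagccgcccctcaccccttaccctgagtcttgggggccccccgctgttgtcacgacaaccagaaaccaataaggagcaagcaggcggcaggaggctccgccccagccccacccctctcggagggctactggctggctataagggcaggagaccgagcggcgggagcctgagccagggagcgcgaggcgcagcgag
Amdhd2: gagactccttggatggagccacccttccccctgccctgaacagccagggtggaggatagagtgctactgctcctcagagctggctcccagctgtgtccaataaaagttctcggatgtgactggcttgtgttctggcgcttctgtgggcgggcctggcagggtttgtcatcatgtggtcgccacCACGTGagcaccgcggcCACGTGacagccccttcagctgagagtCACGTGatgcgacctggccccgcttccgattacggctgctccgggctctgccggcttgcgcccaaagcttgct
Retnla: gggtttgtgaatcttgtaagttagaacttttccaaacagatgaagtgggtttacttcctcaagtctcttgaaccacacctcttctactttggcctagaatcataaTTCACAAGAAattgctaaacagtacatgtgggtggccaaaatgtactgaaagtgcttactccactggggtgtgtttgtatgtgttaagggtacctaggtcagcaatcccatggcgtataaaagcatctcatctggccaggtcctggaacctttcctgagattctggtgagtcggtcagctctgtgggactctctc

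TTC and GAA with 4 bases between them were found in 0 of the 10 member promoters and in 6.95% of the 32851 promoters in the table, and TTCNNNGAA in 0 of the 10 and in 8.30% of all. Retnla holds the former, beginning 145 bases before the start. The few other genes searched that were higher after IL-4 did not share it, and no promoter was used for Arg1. Chil3 holds only TTCNNNGAA, beginning 172 bases before the start, and Mrc1 and the glucose transporter gene Slc2a6 hold neither spacing. CACGTG stood in 1 member promoter, that of Amdhd2, which holds it 3 times, beginning 67, 50 and 23 bases before the start, and in 7.15% of all promoters. The member promoters had 48.3% to 70.3% G and C, where the median over all promoters was 52.7%, and Gfpt1 and Pgm3 had the highest share. A match is a description of the letters only.

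The entry step has 2 isoenzymes, of which Gfpt2 was lower after IL-4. Gfpt1 (NM_013528), the widely expressed amidotransferase, had an intensity of 2693 ± 269 in untreated and 2993 ± 299 in IL-4-treated BMDMs, a scaled log2 difference of 0.05, which is inside the software error of 0.20. It ran from -0.0021 with the 75th percentile taken from probes that both arrays detected to 0.27 with median scaling and 0.39 with spike-in scaling, the latter pair past that error. Median and spike-in scaling also moved the median of all genes, to 0.20 and 0.32. Relative to the median gene, Gfpt1 was at 0.07 in both, inside the error. Its dimmer probe, at 33.3 ± 7.46 and 44.8 ± 7.68, was detected with IL-4 only. Its untreated signal lay above the lowest detected one, so its 0.33 is the measured difference and not a bound. The software error of that probe is 0.41 and its spot SD 0.24, and normexp gave no value for it.

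Gfpt2 (NM_013529), the isoenzyme with a narrower distribution, had 1 probe, with an intensity of 163 ± 18.5 untreated and 114 ± 14.3 after IL-4. After scaling, Gfpt2 was 1.53-fold lower, a log2 difference of -0.61, beyond the software error of 0.24 and the spot SD of 0.12. Without scaling the log2 difference was -0.51. The probe is dim: its median pixel intensity before subtraction was 195 and 155, while negative control spots, with a median of 57 in both conditions, reached 82 and 80.5. Among the 1174 genes within 0.5 log2 units of its mean signal, the median difference was -0.09, and 9.71% were at least as low as Gfpt2. Over the other scalings and background steps it lay between -0.67 and -0.27, lower in each, and between -0.60 and -0.44 relative to the median gene. In RNA from a whole culture, fewer cells of a type and less RNA per cell cannot be told apart. Transcripts used as markers of other cell types were detected, and they moved in both directions. The paper reports high purity of its BMDMs by flow cytometry, and which cells carried these transcripts was not tested. Of the 4 neutrophil markers, Camp, Ltf and Elane had log2 differences of -0.61, -0.54 and -0.23 and Mpo had 0.30, and their summed intensity was 4632 untreated and 3704 after IL-4. Of the 3 fibroblast markers, Col1a1 had -0.34, Col3a1 -0.03 and Pdgfra 0.51, with sums of 79755 and 72132, and of the 3 eosinophil markers detected, Prg2 had 0.37, Ccr3 0.28 and Siglecf -0.02. Of the 3 mast cell or basophil markers, Mcpt8 had 170 and 109, Cpa3 was detected in untreated cells only, and Fcer1a in neither condition. Among the macrophage markers themselves, Itgam, Lyz2, Mertk and Fcgr1 were lower at their brightest probe, with log2 differences of -0.70 to -1.23 (the other Itgam probes had -0.24 and -0.27), and Csf1r and Adgre1 had 0.09 and 0.17. Their part in the value of Gfpt2 was not tested.

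In the middle of the pathway, the brighter probes for Gnpnat1, Pgm3 and Uap1 had log2 differences of 0.21, 0.08 and 0.21, and all were higher under every scaling and background step, up to 0.55, 0.42 and 0.55 with spike-in scaling. Gnpnat1 (NM_019425), which acetylates glucosamine 6-phosphate, had intensities of 1183 ± 118 and 1464 ± 147 and a log2 difference of 0.21, just past its software error of 0.20. Its dimmer probe, with 255 ± 26.5 and 294 ± 30.1, had 0.10, so the probes lie on the same side of 0 but only the brighter passes that error. Pgm3 (NM_028352), the mutase that moves the phosphate of the acetylated sugar, had 1248 ± 125 and 1411 ± 141 and a difference of 0.08, inside the error. The dimmer Pgm3 probe had 31.9 ± 7.91 and 49.6 ± 8.35 and was detected with IL-4 only. Its measured difference was 0.54 against an error of 0.43, read near the detection limit, and normexp gave no value for it. Among the 493 genes of like signal that both arrays detected, 4.26% were at least as high. That share cannot place this probe, which was marked as detected only where it was higher.

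Uap1 (NM_133806), the pyrophosphorylase that joins the sugar to UTP and so completes UDP-GlcNAc, had intensities of 3296 ± 330 and 4080 ± 408. The log2 difference was 0.21, a 1.16-fold higher signal, just past the error of 0.20, and it lay between 0.15 and 0.55 over the other settings. Its difference was not unusual for its signal, as 19.8% of 1527 genes of like signal were at least as high.

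**Figure D2:**
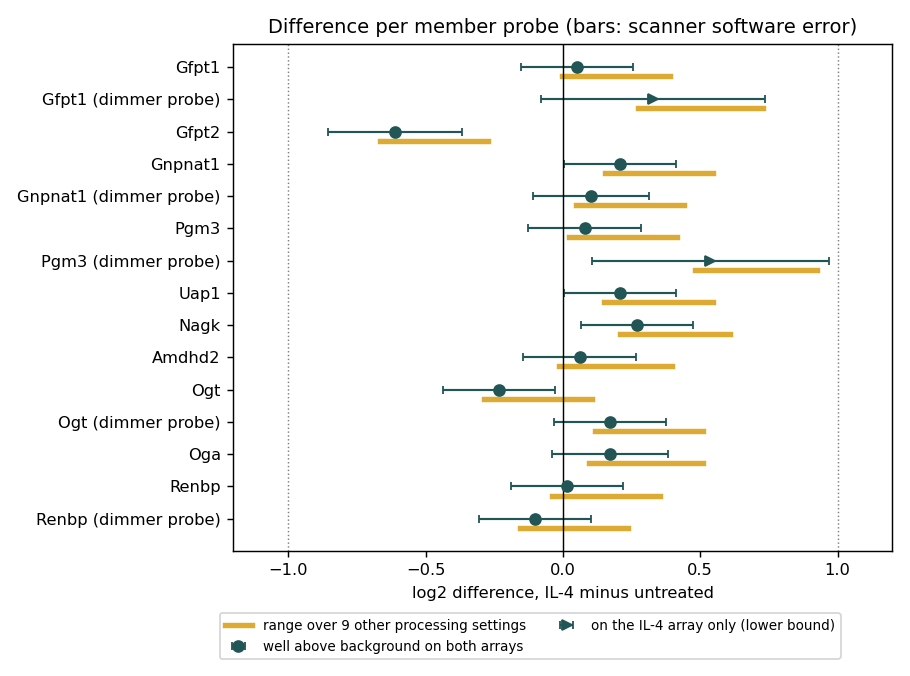
Log2 difference, IL-4 minus untreated, of each member probe, with the combined software error of both spots as bars and, beneath, the range over 9 other processing settings. Triangles are probes detected with IL-4 only, which the key calls lower bounds though their values are measured differences. For these probes normexp gave no value. Dotted lines mark 2-fold, which 0 of the 15 probes reached in any setting drawn. Gfpt2 lay to the left of 0 in all of them, while the bar beneath the brighter Ogt probe crossed 0.

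The salvage genes return GlcNAc from broken-down glycans. Nagk (NM_019542), the kinase that phosphorylates free GlcNAc, had the highest value of the 10 genes by brighter probe, with intensities of 3970 ± 397 untreated and 5129 ± 513 after IL-4. It was 1.21-fold higher, a log2 difference of 0.27, past the software error of 0.20, and stayed between 0.21 and 0.61 over the other settings. Of 1494 genes of like signal, 14.2% were at least as high. Amdhd2 (NM_172935), the deacetylase that takes N-acetylglucosamine 6-phosphate back toward glucosamine 6-phosphate, had 10923 ± 1092 and 12203 ± 1220, a difference of 0.06 inside the error of 0.20, which ran from -0.01 after quantile normalization to 0.40 with spike-in scaling. Renbp (NM_023132), also known as N-acetylglucosamine 2-epimerase, which interconverts GlcNAc and N-acetylmannosamine, had 3720 ± 372 and 4024 ± 402, a difference of 0.01. It reached 0.35 with spike-in scaling. Its dimmer probe gave 633 ± 63.7 and 632 ± 63.6, a difference of -0.10. The 2 Renbp probes thus differ in sign and both lie inside the error, and the brighter one turned negative with quantile normalization, cyclic loess and the 75th percentile taken from probes that both arrays detected.

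The O-GlcNAc mark is written by Ogt and erased by Oga. The probes for Ogt (NM_139144), the transferase, disagreed: the brighter had 842 ± 84.6 untreated and 768 ± 77.3 after IL-4, a log2 difference of -0.23, and the other had 726 ± 72.9 and 876 ± 87.8, a difference of 0.17. Their mean signals were nearly equal, the first is just past the software error of 0.21 and the second inside its error of 0.20, and the brighter probe reached 0.11 with spike-in scaling. No direction can be given for Ogt. Oga (NM_023799), the hydrolase, had 306 ± 31.7 and 370 ± 37.8 at its 1 probe, a difference of 0.17 inside the error of 0.21, and lay between 0.09 and 0.51 over the other settings.

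**Figure D3:**
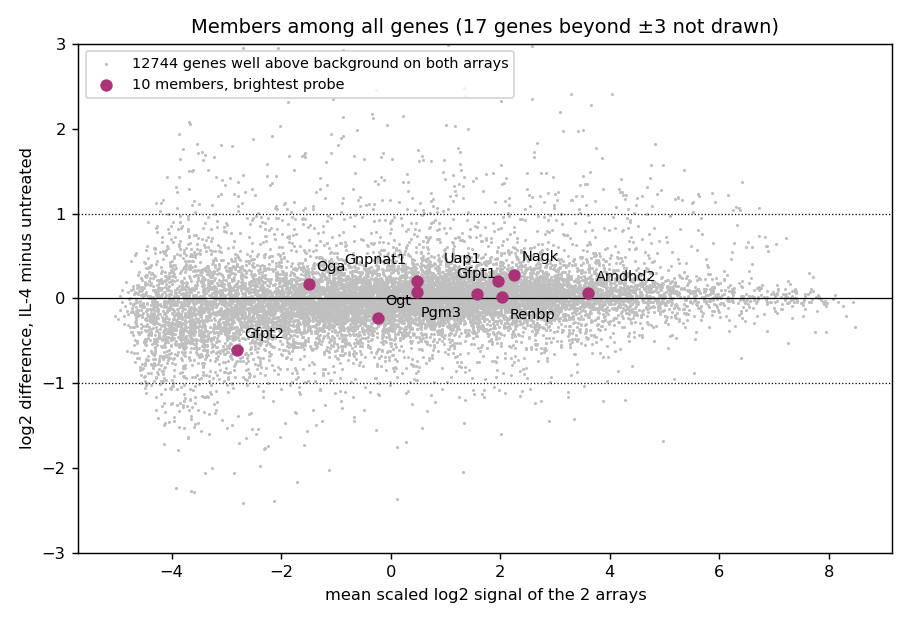
Log2 difference, IL-4 minus untreated, against the mean scaled log2 signal of both arrays for the 12744 genes detected on both arrays (grey; 17 beyond 3 log2 units are not drawn) and for the 10 members by their brighter probe. The members lie within the cloud and inside the dotted 2-fold lines, and Gfpt2, at -0.61, is the lowest of them.

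The steps around the pathway were read from a list of 61 related genes, of which 59 had a probe and 58 were detected on both arrays. Here 1 gene was at least 2-fold higher and 0 were lower by as much, 28 differences were above 0 and 30 below, and the median was -0.02. By step, the medians ran from -0.18 for the 3 UDP-GlcNAc transporters to 0.16 for the 7 genes that lead from glucose to fructose 6-phosphate. The gene past 2-fold was Slc2a6, a glucose transporter of the lysosome membrane, with intensities of 1023 untreated and 4477 after IL-4. It was 4.09-fold higher, a log2 difference of 2.03, and its dimmer probe, with 77.1 and 331, was higher as well. The other genes from glucose to fructose 6-phosphate, the transporters Slc2a1 and Slc2a3, the hexokinases and Gpi1, lay between -0.39 and 0.53, with Slc2a1 the highest of them. Slc1a5, a glutamine carrier, had the largest difference in the glutamine group, 0.43 at its brighter and 0.47 at its dimmer probe.

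The lowest values by brighter probe among the related genes belonged to Has2, Gnpda1 and Engase. Has2, a hyaluronan synthase that uses UDP-GlcNAc, had an intensity of 1633 untreated and 887 after IL-4, a log2 difference of -0.98, just short of 2-fold, and went to -1.04 with the 75th percentile taken from probes that both arrays detected. Gnpda1, a deaminase that turns glucosamine 6-phosphate back into fructose 6-phosphate and so runs opposite to Gfpt1 and Gfpt2, had 12625 and 7917, a difference of -0.77, with -0.60 at its dimmer probe. Engase, a cytosolic enzyme that cuts N-glycans within their GlcNAc core, had -0.75 at its brighter probe and -1.04 at its dimmer one. All 3 were lower under every scaling and background step tried. In the remaining groups the largest differences were 0.31 for Ugp2, which makes UDP-glucose, -0.52 for Mgat5, which branches N-glycans, -0.21 for Slc35a1, the CMP-sialic acid transporter, and -0.25 for Slc35b4, a carrier of UDP-GlcNAc and UDP-xylose, and the last pair reached 0.13 and 0.08 with spike-in scaling.

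**Figure D4:**
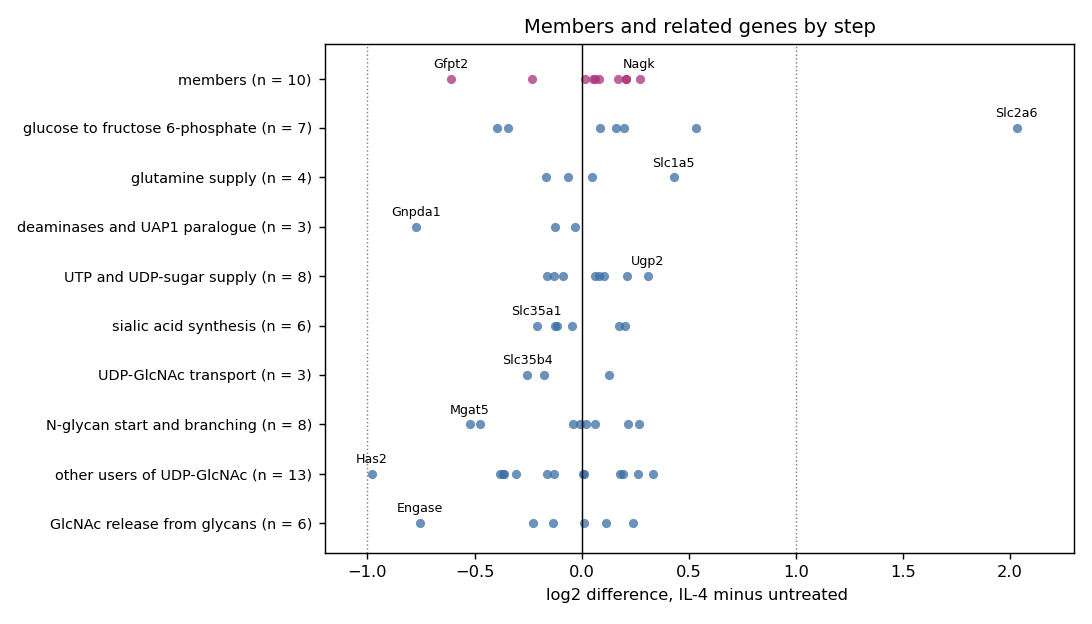
Log2 difference, IL-4 minus untreated, of the 10 members (top row) and of the 58 related genes detected on both arrays, grouped by step, 1 point a gene, with 1 array per condition. Dotted lines mark 2-fold, which Slc2a6 alone among the drawn genes passed, at 2.03, while Has2 lay just short of it at -0.98.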

How the data were processed

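Total RNA of untreated and IL-4-treated BMDMs carried a Cy3 label and was hybridised to an Agilent mouse array, 1 for each condition as the sample labels give it. The scanner files, as deposited, hold the spot intensity written by Feature Extraction 10.10.1.1 (design annotated on mm9), which is background-subtracted and detrended within an array and not scaled between arrays, with flags for each spot. A second table holds the log2 values that the authors processed, whose tool, scale and centring are not given in the sources used here. Its column medians were 0.16 and 0.016, and the log2 differences of all 15 member probes in it were within 0.000565 of those from the scanner intensity.

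Control spots and outlier spots were left out, log2 intensities were averaged per probe, and each array's 75th percentile was subtracted. Where 1 array was not well above background, its value was whichever was higher, the probe's signal or the lowest detected one. In the former case the difference is as measured, and in the latter it is a lower bound on its size. No difference was given where neither array was well above background, or where the bound pointed the other way. Probes were named through RefSeq accessions of a GRCm38.p6 table (27229 of 39424), used for names only. No test was run with 1 array per condition. The members, the related genes and the markers were chosen with earlier results of these data known. Among the related genes, those past 2-fold and otherwise the largest difference of each step are named, and Slc2a1 was added after its value was seen. Counting was tested on simulated data. Alternatives were other scalings, normexp (offset 50, on the median pixel intensity, since the files hold no mean), probe rules, filters and cutoffs. Python 3.11.15, numpy 2.4.6, pandas 2.3.3, matplotlib 3.10.9, R 4.3.3 and limma 3.58.1 were used.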

Additional observations from a re-analysis of the deposited data

How the results depend on the processing

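No member reached 2-fold in either direction under any of the scalings, background steps, probe rules and filters run. At a cutoff of 1.5-fold, 1 member (Gfpt2) was lower in the main setting. Gfpt2 fell short of that cutoff without scaling (-0.51) and with quantile normalization (-0.51), normexp (-0.48) and cyclic loess (-0.48). It also fell short with median scaling (-0.40) and spike-in scaling (-0.27). With spike-in scaling, Nagk passed 1.5-fold upward, at 0.61. The median log2 difference of the members, 0.07, moved to 0.28 with median scaling, 0.17 without scaling and 0.41 with spike-in scaling, which moved the median of all genes to 0.20, 0.09 and 0.32, and to 0.16 with the median over probes and 0.17 with the dimmest probe. Of 11 alternative settings, the authors' processed values and the keeping of flagged spots barely moved the members. The probe rules cannot move the 5 members with 1 probe. By gene, 6 of 10 members kept their sign in all 11. The exceptions were Gfpt1, Amdhd2, Ogt and Renbp; for Ogt, normexp and the dimmest probe put the other probe in its place. Related genes lower by 2-fold or more, 0 as reported, came to 1 with the 75th percentile taken from probes that both arrays detected, 1 with the dimmest probe and 3 at 1.5-fold, and the related gene at least 2-fold higher was 1 in every setting.

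Over all named genes, 431 were at least 2-fold higher and 472 lower. The higher numbered 783 with spike-in scaling, 250 with normexp, 881 with no filter on dim probes, 895 at 1.5-fold and 160 at 3-fold. The lower came to 308 after quantile normalization, 299 with median scaling, 234 with spike-in scaling, 153 with normexp, 870 in the authors' processed values, 184 over genes that both arrays detected, 2077 with no filter, 1259 at 1.5-fold and 133 at 3-fold. Filters and cutoffs change these counts by construction. So does the use of the authors' processed values, whose differences were counted without the lower bounds of the main setting. The offset of 50 added in normexp makes differences of dim probes smaller. No cause was tested for the moves under the other scalings. No paired analysis was possible because there was 1 array for each condition. The probe for Gfpt2 and the dimmer probes for Gfpt1 and Pgm3 lie close to background, and precision is limited throughout by the number of arrays.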
